A study of Mus musculus with 35 samples.

Results

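The genes described here are 9 transcriptional targets of Trp53, the mouse gene for the tumor suppressor p53: Cdkn1a, Mdm2, Ccng1, Trp53inp1, Bax, Bbc3, Fas, Phlda3 and Zmat3, out of 24421 genes in each count file. They were chosen by name with their log2 fold changes after Nelfb loss (the empty-vector populations) already known, so those values are given below as a description, with no p and nothing supported by their calls. p53 is a DNA-binding factor that turns on genes after DNA damage and other stress. Its targets stop the cell cycle (Cdkn1a), feed back on p53 itself (Mdm2) or start apoptosis (Bax, Bbc3, Fas), and in fibroblasts the best known outcome is a lasting arrest that depends on Cdkn1a.

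Poly(A) RNA was sequenced in 35 libraries of immortalized mouse embryonic fibroblasts (iMEFs) derived from Nelfb flox/- cells. All groups, controls included, carry 1 null allele, and the other was floxed until Ad-Cre was given. Nelfb encodes NELFB, a subunit of the negative elongation factor complex that holds RNA polymerase II near promoters. The first set holds 20 G418-selected cell populations with an empty pLenti vector (EV) or flag-tagged NELFB as WT, MT194, MT486 or DMT, each collected 7 days after adenovirus with Cre (Ad-Cre) or with GFP alone (Ad-GFP), 2 replicates per group. MT194 and MT486 carry alanine substitutions that abolish binding to NELFA and NELFC or to NELFE, and the labels of DMT name both. The second set holds 15 stable lines, each grown from a single cell after Ad-Cre, 3 lines per group: WT, MT194 and MT486 in pLenti, and WT(N48) and the C-terminal truncation Δ-C60 in pBabe. How the iMEFs were immortalized is not given in the sources used here (loss of Trp53 or Cdkn2a is one common route). Reads on genes ranged from 17969149 to 29080007 per population and from 18413284 to 27816723 per clone. Levels are CPM, the share of reads on genes taken by a gene, after TMM scaling done separately for populations and clones.

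The labels were checked first. Nelfb itself had 7.97 and 5.46 CPM in the EV-Cre replicates versus 46.1 and 39.5 in EV-GFP. In all other populations it had at least 60.5 CPM. Its mean with Ad-Cre was 68.2 CPM in WT, 111 in MT194, 122 in MT486 and 188 in DMT. The part of this difference in the comparisons of mutants with WT was not tested. Among the clones, those labelled WT had 10.3, 109 and 15.5 CPM of Nelfb, while the other 12 had 56.3 to 247. Clones 1 and 3 labelled WT therefore go against a label of ectopic NELFB, and the calls of MT194 and WT(N48) clones against them, with the main values for Cdkn1a, Trp53inp1 and Mdm2, are given with and without them. Δ-C60 was not compared with WT clone 2 alone. The spreads and correlations over 15 clones include them. MT486 clones 1 and 2 were closer to each other than any other replicate pair (chi-square per degree of freedom 5.06 versus at least 32.4), though further apart than sampling noise, and were kept as separate clones. Of 8 fibroblast markers, 7 passed the filter on low counts (summed level 19400 to 42300 CPM in populations and 7180 to 25100 in clones, Fn1 the most abundant), and Thy1 had no read in 13 of 20 populations and 11 of 15 clones. The 5 immune markers summed to at most 5.41 CPM in populations and 5.98 in clones, with Cd68 the most abundant of them and Cd3e at 0 in 19 of 20 populations and in all 15 clones. The 5 epithelial markers reached at most 1.29 and 2.07 CPM (Cdh1 the most abundant, Krt8 at 0 in 19 populations and 11 clones) and the 4 endothelial markers at most 1.25 and 5.03 CPM (Kdr the most abundant).

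Because p53 acts through a known DNA motif, the promoters of the members were read for it. RefSeq promoters of GRCm38.p6, spanning 250 bases before to 50 bases after the start, were given for 7 of the 9 genes (10 promoters, since Cdkn1a and Bbc3 have several starts). They were searched on both strands for the p53 response element, which is built from decamers of 10 letters, either as 1 exact decamer or as 2 adjacent decamers with at most 1 mismatch (a full element). The search was set up after the sequences had been seen. The matches in 4 of the genes are printed 5′ to 3′ on the strand of the gene, with the element in capitals and 5 flanking bases in lower case:
Cdkn1a, full element, chr17:29090928-29090947, plus strand: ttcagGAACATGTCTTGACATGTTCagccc
Cdkn1a, decamer, chr17:29090906-29090915, plus strand: ggtggGGACTAGCTTtctgg
Ccng1, full element, chr11:40755462-40755481, minus strand: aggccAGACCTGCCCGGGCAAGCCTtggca
Mdm2, decamer, chr10:117710935-117710944, minus strand: gatagGAACTTGCCTagcga
Bax, decamer, chr7:45467090-45467099, minus strand: atcccAGGCAAGCTTtgaac

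The full element of Cdkn1a begins 51 bases before the start and that of Ccng1 195 bases before it, each with 1 mismatch. The decamers of Mdm2 and Bax lie 186 and 201 bases before the start. No match was found in the windows of Bbc3, Fas, Phlda3 or the second start of Cdkn1a. Over all 32851 promoters of this length, 8.36% held an exact decamer and 0.067% (22 promoters) a full element. The genes with a full element, Cdkn1a and Ccng1, had a Pearson r of −0.14 over the 20 populations and 0.75 over the 15 clones (log2 CPM).

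Cdkn1a encodes p21, an inhibitor of cyclin-dependent kinases, and lies on chromosome 17 from 29090976 to 29100727 of mm10. Of its exon sequence 7.68% overlaps another gene model on the opposite strand. The EV-Cre replicates had 78.8 and 50.7 CPM of Cdkn1a and the EV-GFP replicates 15.3 and 12.1, a log2 fold change of 2.24 (SE 0.31) or 4.73-fold. Its absolute change ranked 253 of 13805 genes in that contrast. With NELFB put back the groups were closer: WT-Cre had 24.3 and 21.7 CPM versus 12 and 13.4 in WT-GFP. MT194-Cre replicates differed from each other, at 37.2 and 18.2 CPM, and enclosed part of the MT194-GFP range of 21.5 and 16.9. MT486-Cre had 38.0 and 27.5 CPM versus 14.0 and 13.7 in MT486-GFP. DMT-Cre had 38.5 and 47.9 CPM versus 13.5 and 12.2 in DMT-GFP. Thus both replicates with Ad-Cre lay above both with Ad-GFP in EV, WT, MT486 and DMT, and in MT194 they overlapped.

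**Figure D1:**
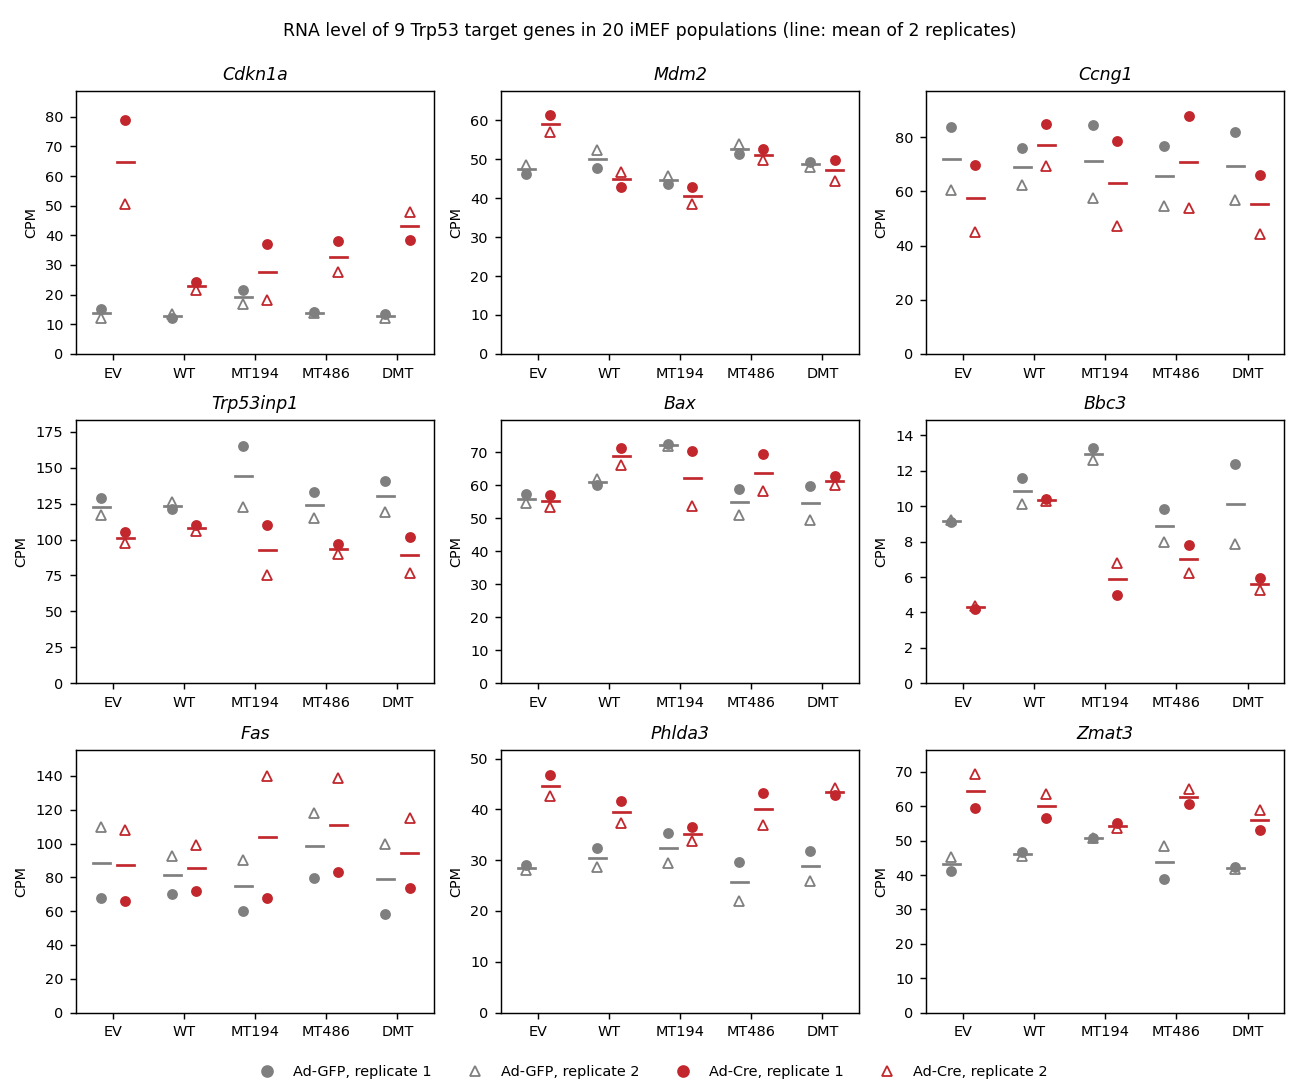
CPM (y axis, from 0) of the 9 genes in 20 populations by NELFB construct (x axis), with Ad-GFP in gray, Ad-Cre in red, circles for replicate 1, open triangles for replicate 2 and a line at the mean of 2. Cdkn1a is highest in EV-Cre (50.7 and 78.8 CPM), while Fas and Ccng1 separate by replicate rather than by virus.

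In the quasi-likelihood test of edgeR, Benjamini-Hochberg adjusted over 13805 genes, Cdkn1a rose in DMT (log2 fold change 1.75, SE 0.31, adjusted p = 0.00316), and the call held in all 4 fits with 1 library left out (adjusted p at most 0.0451). In MT486 it missed the threshold without a block (1.24, SE 0.31, adjusted p = 0.0518) and passed with the replicate as a block (1.23, adjusted p = 0.00498), with adjusted p from 0.00388 to 0.328 over all alternatives. WT gave 0.85 (SE 0.30, adjusted p = 0.621, and 0.0826 with the block, range over alternatives 0.0826 to 1). MT194 gave 0.53 (SE 0.30, adjusted p = 0.433), and without MT194-Cre replicate 1 the value was −0.08. That fit set MT194-Cre replicate 2 against both MT194-GFP replicates. Within replicates 1 and 2 the log2 ratio was 0.79 and 0.11. The difference between the Cre effects of a mutant and of WT was tested as an interaction, 3 comparisons that share the WT libraries. For Cdkn1a it was −0.32 (SE 0.43) for MT194, 0.39 (SE 0.43) for MT486 and 0.90 (SE 0.43) for DMT on the log2 scale, with adjusted p of 1, 1 and 0.683. For DMT the unadjusted p was 0.0559.

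Ordered by level, EV-Cre came first for Cdkn1a (64.7 ± 19.9 CPM, mean ± SD, n = 2), then DMT-Cre (43.2 ± 6.66), MT486-Cre (32.8 ± 7.43), MT194-Cre (27.7 ± 13.5) and WT-Cre (23.0 ± 1.89). MT194-Cre overlapped its neighbours MT486-Cre and WT-Cre, and the upper MT486-Cre replicate (38.0 CPM) lay just below the lower DMT-Cre replicate (38.5). Among the Ad-GFP populations, MT194-GFP (19.2 ± 3.27 CPM) stood above the other 4, which lay between 12 and 15.3 CPM. Of these, EV-GFP overlapped the other 3, and MT486-GFP (13.7 and 14.0 CPM) lay just above DMT-GFP (12.2 and 13.5) and WT-GFP (12 and 13.4), which overlapped. In no population was Cdkn1a absent: the lowest library held 232 reads of it.

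The members called were then counted (log2 fold change past 0.5 in either direction, adjusted p below 0.05). In EV, 4 of 9 passed, against 11.8% of all genes tested, and in 6 of 9 the Ad-Cre and Ad-GFP groups did not overlap, against 48.4%. Nothing is read from these counts because the list was made with these values known, and the block also gave 4 (25.4%). In WT none passed (0.0217% of genes tested, which is 3 genes, and 859 genes at an unadjusted p under 0.05, 3 of them members), and DESeq2 (59 genes) and the replicate block (3.09% of genes) also called no member there. The groups of 6 of 9 did not overlap, against 38.1% of genes. In MT194 1 of 9 passed (4.22%), and with the replicate block 2 of 9 (14.5%), and the groups of 5 did not overlap (34.7%). In MT486 none of 9 passed (2.42%), while the block and DESeq2 each called 3, against 12.1% of genes under the block and 684 genes by DESeq2 (334 by edgeR without the block), and 3 members had an unadjusted p under 0.05. The groups of 5 members did not overlap there (35.4%). In DMT 3 of 9 passed (9.92%), and 4 with the block (23.1%), and the groups of 6 did not overlap (48.2%). The median log2 fold change over the 9 was −0.02 in EV, 0.16 in WT, −0.14 in MT194 and 0.17 in both MT486 and DMT, beside medians of −0.01 to 0.01 over all genes tested. In DMT, 2 of the calls were higher and 1 lower.

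**Figure D2:**
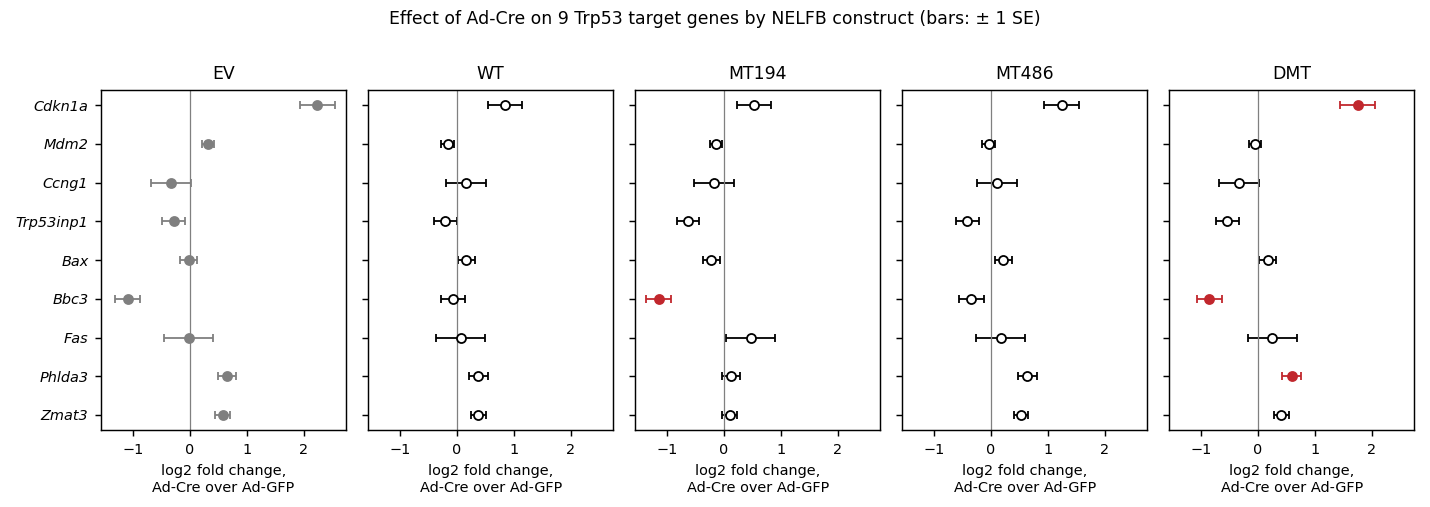
Log2 fold change of Ad-Cre over Ad-GFP (x axis) for each of the 9 genes (y axis) in 5 panels by NELFB construct. Bars are 1 SE from edgeR without the replicate block. Red filled points passed the test, open points did not, and gray points (EV) are shown without a test. Cdkn1a is to the right of 0 in every panel (0.53 to 2.24), and Bbc3 and Trp53inp1 are to the left in every panel.

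Phlda3 and Zmat3 were the members with levels closest to those of Cdkn1a over the 20 populations (Pearson r of log2 CPM 0.87 and 0.78). These populations include EV, whose values were known when the genes were listed, so this is a description. Phlda3, whose protein holds back AKT signaling by competing for membrane lipids, lies on chromosome 1 from 135766119 to 135769136. It had 46.7 and 42.6 CPM in EV-Cre versus 29.0 and 28.1 in EV-GFP, a log2 fold change of 0.65 (SE 0.16). In DMT-Cre it had 42.8 and 44.2 CPM versus 31.8 and 25.9 in DMT-GFP, and it rose by 0.59 on the log2 scale (SE 0.16, adjusted p = 0.0356 by edgeR). That call was lost in each of the 4 fits with 1 library left out (adjusted p from 0.0544 to 0.276). MT486-Cre had 43.3 and 36.9 CPM versus 29.6 and 21.9, a difference of 0.64 (SE 0.17, adjusted p = 0.0626) that passed with the block (adjusted p = 0.000256, range over alternatives 0.000256 to 0.569). In WT (0.38, SE 0.16, adjusted p = 0.787) both Ad-Cre replicates, 41.7 and 37.4 CPM, lay above both Ad-GFP replicates at 32.4 and 28.6. With the block the adjusted p in WT was 0.0359, with a change below the fold threshold. MT194 overlapped, with 36.6 and 33.7 versus 35.4 and 29.4 CPM.

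Zmat3, an RNA-binding zinc finger protein that takes part in growth suppression by p53, lies on chromosome 3 from 32334792 to 32366014. Its levels were 59.6 and 69.3 CPM in EV-Cre and 41.1 and 45.1 in EV-GFP (log2 fold change 0.58, SE 0.13). MT486-Cre had 60.7 and 64.9 CPM versus 38.8 and 48.5 in MT486-GFP (0.53, SE 0.13, adjusted p = 0.0506, and 0.000496 with the block, range over alternatives 0.000496 to 0.602). DMT-Cre had 53.1 and 59.0 CPM versus 42.4 and 41.8 (0.41, SE 0.13, adjusted p = 0.0574, and 0.00146 with the block). In WT it had 56.5 and 63.5 CPM with Ad-Cre versus 46.6 and 45.6 with Ad-GFP (0.38, SE 0.13, adjusted p = 0.589, and 0.021 with the block). With the block these changes in DMT and WT stayed below the fold threshold. MT194 gave 0.10 (SE 0.13, adjusted p = 0.825). Zmat3 thus had both Ad-Cre replicates above both Ad-GFP replicates with every construct, and the fitted fold change between groups was at most 1.49. Without the block edgeR with TMM scaling called it in none of WT, MT194, MT486 and DMT. In MT486 it was called by DESeq2 and by edgeR with the size factors of DESeq2.

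Bbc3 went the opposite way. It encodes PUMA, a BH3-only protein that triggers mitochondrial apoptosis, lies on chromosome 7 from 16308393 to 16318205 and was the least abundant member (93 to 278 reads per population). EV-Cre had 4.19 and 4.38 CPM versus 9.10 and 9.22 in EV-GFP, a log2 fold change of −1.09 (SE 0.22). MT194-Cre had 5 and 6.79 CPM versus 13.3 and 12.6 in MT194-GFP. Bbc3 fell by 1.14 on the log2 scale there (SE 0.22, adjusted p = 0.00982), and the call was lost without MT194-Cre replicate 1 (adjusted p = 0.0984), without MT194-GFP replicate 1 (0.0736) or with the 4 libraries fitted alone (0.252).

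In DMT, Bbc3 had 5.96 and 5.26 CPM versus 12.4 and 7.85 and fell by 0.85 (SE 0.22, adjusted p = 0.025). DMT-GFP replicate 1 set much of that size: without it the difference was −0.48 (adjusted p = 0.233). The call was also lost without DMT-Cre replicate 1 (0.0876) or DMT-Cre replicate 2 (0.152). MT486 had 7.79 and 6.25 CPM versus 9.83 and 7.97 (−0.34, SE 0.22, adjusted p = 0.549). WT showed 10.4 and 10.3 CPM versus 11.6 and 10.1 (−0.07, SE 0.21, adjusted p = 1), so that the groups overlapped. The Cre effect on Bbc3 in MT194 differed from that in WT by −1.07 (SE 0.30, adjusted p = 0.526). It was called only with the replicate block (−1.08, adjusted p = 0.0292, against 0.0292 to 1 over all alternatives). No other member was called in an interaction under any alternative, DESeq2 included (65, 4 and 200 genes called in MT194, MT486 and DMT), against 0% of genes in MT194 and MT486 and 0.138% in DMT without the block, and 2.56%, 0.232% and 7.19% in MT194, MT486 and DMT with it. At an unadjusted p under 0.05 the interactions held 615, 260 and 1041 genes in the same order, with 1, 0 and 1 members among them.

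Trp53inp1 encodes a stress protein that acts in autophagy and in p53-dependent death, and lies on chromosome 4 from 11156431 to 11174379. It was lower with Ad-Cre in both replicates of every construct. EV-Cre had 105 and 97.5 CPM versus 129 and 117, a log2 fold change of −0.28 (SE 0.20). MT194-Cre had 110 and 75.4 CPM versus 165 and 123 (−0.63, SE 0.20, adjusted p = 0.102), and passed with the block (−0.63, adjusted p = 0.00066, range 0.00066 to 0.678). DMT-Cre had 102 and 76.5 CPM versus 141 and 119 (−0.54, SE 0.20, adjusted p = 0.107), and passed with the block (−0.55, adjusted p = 0.00121, range 0.00121 to 0.462). The differences in MT486 (−0.41, SE 0.20, adjusted p = 0.382) and WT (−0.20, SE 0.20, adjusted p = 1) did not pass.

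None of the remaining 4 members, Mdm2, Bax, Ccng1 and Fas, was called for Ad-Cre with WT, MT194, MT486 or DMT. Mdm2, the E3 ligase that marks p53 for degradation, lies on chromosome 10 from 117688875 to 117710758. EV-Cre had 61.4 and 56.9 CPM of it versus 46.2 and 48.6 in EV-GFP, a log2 fold change of 0.32 (SE 0.11) or 1.25-fold. With the other constructs it ranged from −0.16 in WT to −0.04 in MT486 (SE 0.11 each, adjusted p at least 0.644). Its EV-Cre replicates lay above all other populations, of which the highest had 54.0 CPM. Mdm2 was also among the steadiest genes, with a within-group SD of 0.08 on the log2 scale, at the 3.43 percentile of all genes tested.

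Bax, the pore-forming effector of mitochondrial apoptosis, lies on chromosome 7 from 45461697 to 45466898. It shares 12.2% of its exon sequence with another gene model on its strand, so reads there may be set apart as ambiguous and not counted. It varied from 49.4 to 72.6 CPM over all 20 populations, and the Cre effects outside EV lay between −0.22 in MT194 and 0.22 in MT486 (SE 0.15 each, adjusted p at least 0.537). Ccng1 encodes cyclin G1, which recruits a phosphatase to MDM2, and lies on chromosome 11 from 40748552 to 40755311. Fas is the death receptor for FAS ligand, on chromosome 19 from 34290666 to 34327772. The Cre effect on Fas was 0.07 in WT, 0.47 in MT194, 0.17 in MT486 and 0.25 in DMT (SE 0.43 each), and that on Ccng1 0.16, −0.17, 0.11 and −0.33 (SE 0.35 each), with no call (adjusted p at least 0.642 for Ccng1 and 0.71 for Fas). With the replicate block the adjusted p was 0.0127 for Ccng1 in DMT (range over alternatives 0.0127 to 0.967) and 0.00885 for Fas in MT194 (0.00885 to 0.931), with changes below the fold threshold.

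What separated the levels of Ccng1 and Fas was the replicate, which the study describes as an independent experiment. Ccng1 was lower in replicate 2 in 10 of 10 groups, by 0.54 (median, log2), a direction that 23.6% of all genes tested also held in all groups. Fas was higher in replicate 2 in 10 of 10 groups, by 0.67, as were 22.8% of genes. Trp53 and Mdm4 were higher in replicate 2 in every group as well (medians 0.57 and 0.65). The share of reads on no gene rose with replicate 2 in 9 of 10 groups, and its part in these differences was not tested. Cdkn1a had no such constancy, being higher in replicate 2 in 2 groups and lower in 8.

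The inputs to the pathway were measured alongside. Trp53 RNA was low, at 6.62 to 19.8 CPM in populations and 3.95 to 11.6 in clones. A processed pseudogene, Trp53-ps on chromosome 17, is named after it, so its counts are uncertain. No Cre effect on Trp53 (−0.39 to 0.10 outside EV, SE 0.49 to 0.50) or on Mdm4 (−0.37 to −0.16, SE 0.42), which encodes an inhibitor of p53, passed the test. In EV, Trp53 was 0.47 (SE 0.49, adjusted p = 0.614 by edgeR), with both Ad-Cre replicates above both Ad-GFP replicates. With the block its EV value was 0.46 (adjusted p = 0.0474), below the fold threshold. Mdm4 was 0.02 in EV (SE 0.42). Cdkn2a encodes p16 and p19ARF, the latter an inhibitor of MDM2. It had 19.7 and 16.3 CPM in EV-Cre versus 64.5 and 50.5 in EV-GFP. In MT194 it had 26.4 and 24.3 versus 72.5 and 56.6 CPM and fell by 1.35 (SE 0.26, adjusted p = 0.0106), a call lost without MT194-Cre replicate 1 (0.0613), MT194-Cre replicate 2 (0.0798) or MT194-GFP replicate 1 (0.0974). In DMT it had 24.5 and 20 versus 70.8 and 59.4 CPM and fell by 1.55 (SE 0.26, adjusted p = 0.00242), which held with any library left out (adjusted p at most 0.0381). In MT486 the difference was −0.66 (SE 0.26, adjusted p = 0.233, and 0.00107 with the block, range 0.00107 to 0.74). WT-Cre had 60.7 and 54.3 CPM versus 70.0 and 62.5 (−0.20, SE 0.25, adjusted p = 1). The Cre effect on Cdkn2a differed from that in WT by −1.14 in MT194 (SE 0.36, adjusted p = 0.661) and −1.34 in DMT (SE 0.36, adjusted p = 0.22), and both were called with the replicate block. Cdkn2a stayed detectable in all 35 libraries, with at least 347 reads per population and 870 per clone.

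A wider list of 53 other genes described as p53 targets, written from general knowledge, had 52 members tested. It was chosen with earlier results of these data known, so nothing is read from its counts of calls with any construct. In EV 16 were called, 11 higher and 5 lower (11.8% of all genes tested), and 25 with the replicate block (25.4%). Plk2, a polo-like kinase, had 255 ± 25.4 CPM in EV-Cre versus 56.8 ± 6.11 in EV-GFP (SD, n = 2), which is 2.16 on the log2 scale. Epha2, Btg2 and Pvt1 were also higher (2.02, 1.12 and 1.05), and Sesn1 (a sestrin, −1.67), Perp (−1.18), Dcxr (−0.88) and Apaf1 (−0.74) lower. With 1 library left out, Epha2 lost its call without EV-Cre replicate 2 or EV-GFP replicate 1, Dcxr without the same libraries, Apaf1 without EV-Cre replicate 2, and Perp without either EV-Cre library or EV-GFP replicate 2. In DMT 12 of 52 were called, 8 higher and 4 lower (9.92% of all genes tested), and with the replicate block 22, of which 11 were higher and 11 lower (23.1%). Plk2 rose by 1.89 (SE 0.14, adjusted p = 9.95e-06), Epha2 by 2.08 (SE 0.43, adjusted p = 0.00802) and Btg2, an antiproliferative factor, by 1.29 (SE 0.21, adjusted p = 0.00196). Sesn1 fell by 1.74 there (SE 0.20, adjusted p = 0.000179). The calls of Plk2, Btg2 and Sesn1 held with any library left out. That of Epha2 was lost without DMT-Cre replicate 2 (adjusted p = 0.0803) or DMT-GFP replicate 1 (0.0762), and that of Plk3 (1.10, SE 0.23, adjusted p = 0.00857) without DMT-Cre replicate 2 (0.081) or DMT-GFP replicate 2 (0.106). Dcxr and Fdxr fell by 0.86 (SE 0.25, adjusted p = 0.0409) and 0.63 (SE 0.15, adjusted p = 0.02), calls lost with any library left out. Perp fell by 0.94 (SE 0.27, adjusted p = 0.0402), which was lost without DMT-Cre replicate 2 (0.256), DMT-GFP replicate 1 (0.142) or DMT-GFP replicate 2 (0.135).

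In MT194 3 of 52 were called (4.22% of all genes tested), and 11 with the replicate block, 7 higher and 4 lower (14.5%). Without the block Plk2 rose by 1.03 (SE 0.14, adjusted p = 0.00102), while Perp fell by 1.57 (SE 0.27, adjusted p = 0.00541) and Sesn1 by 1.18 (SE 0.19, adjusted p = 0.00447, lost without MT194-Cre replicate 2 at 0.0516 or MT194-GFP replicate 1 at 0.0603). In MT486 3 were called as well (2.42%), and 12 with the block, 7 higher and 5 lower (12.1%). Without the block Plk2 rose by 1.06 (SE 0.14, adjusted p = 0.00151) and Pml by 0.53 (SE 0.12, adjusted p = 0.0338), and Sesn1 fell by 1.10 (SE 0.19, adjusted p = 0.01). The call of Pml in MT486 was lost with any library left out, and that of Sesn1 without the first (0.0713) or the second (0.107) MT486-Cre library or without MT486-GFP replicate 1 (0.0991). In WT no gene of the list was called by edgeR without the block and 2, both higher, with it (3.09% of all genes), with 8 of 52 at an unadjusted p under 0.05. The Cre effect on Plk2 was larger in DMT than in WT by 1.40 (SE 0.19, adjusted p = 0.0179), a call lost without DMT-Cre replicate 2, either DMT-GFP library, either WT-Cre library or WT-GFP replicate 1 (adjusted p from 0.0516 to 0.194). Median log2 fold changes of the list were −0.01 in EV, 0.09 in WT, −0.01 in MT194, 0.06 in MT486 and 0.13 in DMT, next to −0.01 to 0.01 over all genes.

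Since p21 acts on the cell cycle, 16 proliferation genes were set beside it. In EV their median log2 fold change was −0.78 and 1 of 16 was called (11.8% of all genes), Ccnb1 at −1.30, or 4 with the replicate block, all lower (25.4%). The Ccnb1 call was lost without EV-Cre replicate 2 or either EV-GFP library. Their summed level was 953 and 656 CPM in EV-Cre versus 1040 and 1520 in EV-GFP. In WT all 16 were positive with a median of 0.68 and none called, with 3 of 16 at an unadjusted p under 0.05. Their groups did not overlap for 16 of 16 (38.1% of all genes), and they summed to 1640 and 1860 CPM in WT-Cre versus 1060 and 1130 in WT-GFP, so that Cdkn1a and these genes were both higher with Ad-Cre there. The medians were −0.01 in MT194, 0.44 in MT486 and 0.12 in DMT, also without a call by edgeR (0, 2 and 1 of 16 at an unadjusted p under 0.05). In MT486 all 16 were positive as well. The groups of 13 of 16 did not overlap in EV (48.4% of all genes), 0 in MT194 (34.7%), 7 in MT486 (35.4%) and 2 in DMT (48.2%). The EV-Cre replicates, which had the most Cdkn1a, thus also had the lowest summed levels of these genes among the 20 populations, the next being 1010 CPM in DMT-Cre replicate 2. Whether more p21 RNA per cell or more arrested cells made these levels cannot be told apart in bulk RNA.

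By the likeness of their levels (Pearson r of log2 CPM over the 20 populations, 11475 genes compared), the genes closest to Cdkn1a were Klhl21 (r = 0.96), Trim16 (0.95), Myc (0.95), Rassf1 (0.94) and Plk2 (0.94). The populations share constructs, virus and experiment and include EV, whose values were known, so these are descriptions and carry no p. Of the other members, Phlda3 (0.87) and Zmat3 (0.78) were closest and Bbc3 the most opposed (−0.78), with Trp53inp1 at −0.52. Set among the 11475 genes compared, Phlda3 would rank 216 and Zmat3 725. In the 15 clones the same 5 genes had r of 0.53, 0.39, 0.74, 0.14 and 0.48. The members closest to Cdkn1a there were Zmat3 (0.84), Ccng1 (0.75), Phlda3 (0.73) and Bax (0.67). Set among 11260 genes, these would rank 13, 88, 113 and 270. By Spearman rank correlation over the clones the order changed: Bax 0.72, Zmat3 0.71 and Ccng1 0.62, with Phlda3 at 0.38.

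In the stable clones 5 of the 9 members, Cdkn1a, Bax, Bbc3, Fas and Phlda3, had a larger SD of log2 CPM within groups than between group means. A mean of 3 clones varies less than a single clone, and no share over all genes stands beside this count. Nothing is read from it. For Cdkn1a the WT(N48) clones had 252, 179 and 24.3 CPM and the Δ-C60 clones 76.1, 289 and 40.9. The clones labelled WT had 62.1, 118 and 111 CPM, the MT194 clones 65.2, 49.0 and 40.9, and the MT486 clones 59.7, 54.0 and 63.9. The highest and the lowest clone, 11.9-fold apart, thus both came from a pBabe vector (Δ-C60 clone 2 and WT(N48) clone 3). The within-group SD of log2 CPM was 1.07 for Cdkn1a and 1.24 for Fas in the clones, beside 0.32 and 0.48 in the populations and 0.34 for the median gene tested in the clones.

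**Figure D3:**
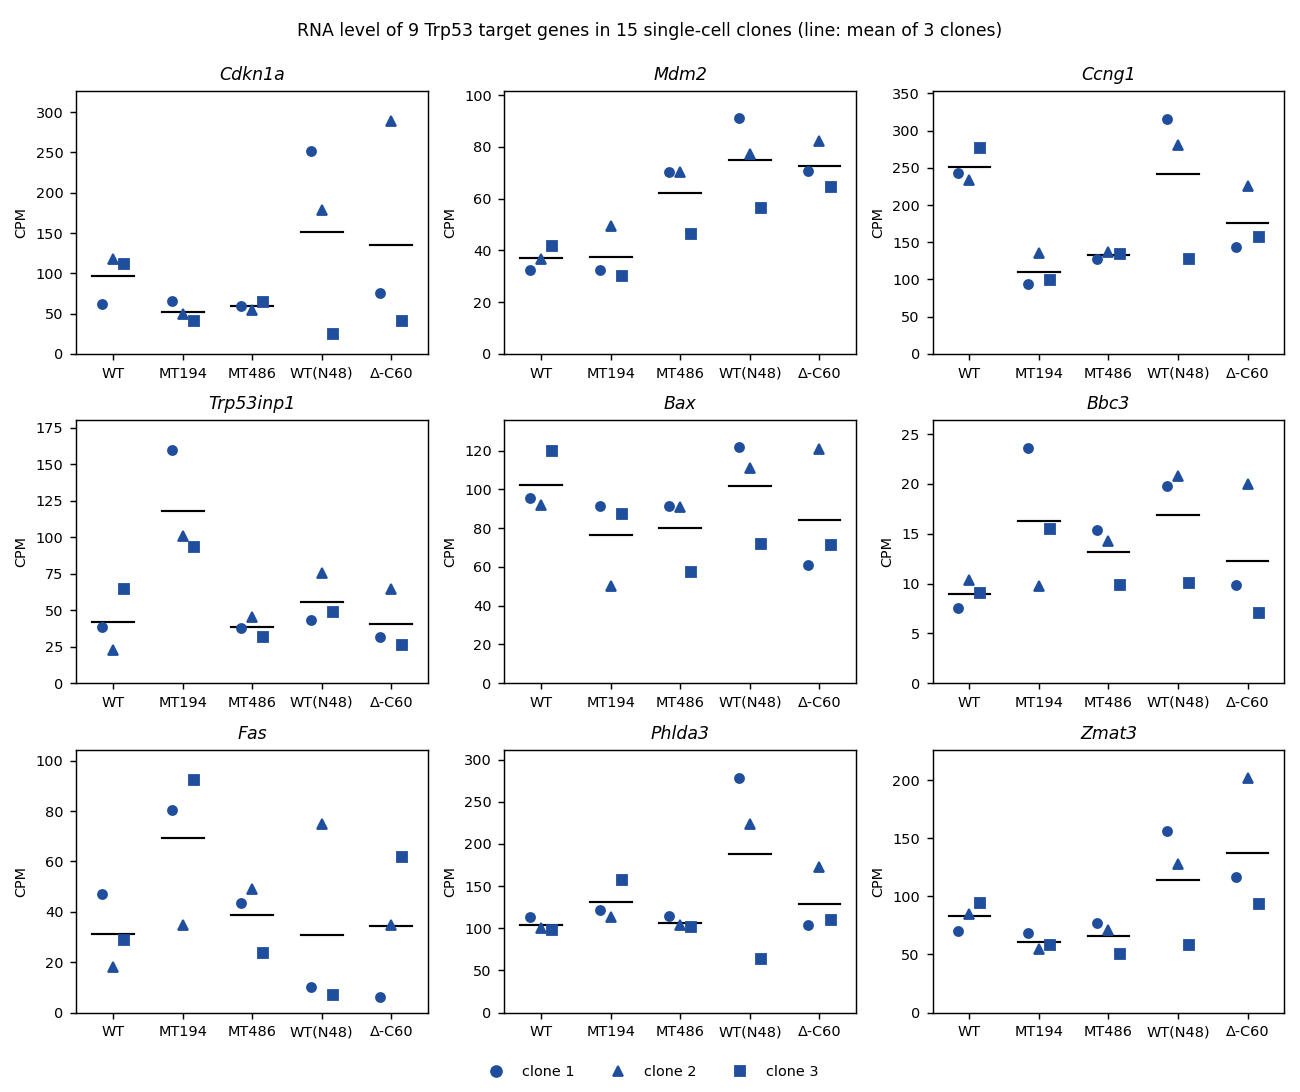
CPM (y axis, from 0) of the 9 genes in 15 clones by group (x axis), with a marker per clone and a line at the mean of 3. WT(N48) clones 1 and 2 and Δ-C60 clone 2 stand apart for Cdkn1a (252, 179 and 289 CPM).

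None of the 4 clone comparisons separated the groups for Cdkn1a. The log2 differences were −0.90 (SE 0.73, adjusted p = 0.515) for MT194 and −0.71 (SE 0.73, adjusted p = 0.867) for MT486, each versus the clones labelled WT. They were −0.17 (SE 0.72, adjusted p = 0.955) for Δ-C60 versus WT(N48) and 0.65 (SE 0.73, adjusted p = 0.648) for WT(N48) versus the clones labelled WT. The value for WT(N48) versus the clones labelled WT was 0.07 without WT(N48) clone 1, 1.14 without WT(N48) clone 3 and 0.39 without WT clone 1. The value for Δ-C60 was 0.41 without WT(N48) clone 1 and −1.38 without Δ-C60 clone 2. With WT clone 2 as the only comparator, after the libraries low in Nelfb were removed, no member was called in any of the 3 comparisons with it, where 1 gene in all was called for MT194, 1 for MT486 and 2 for WT(N48), and Cdkn1a was −1.2 for MT194, −0.99 for MT486 and 0.35 for WT(N48) (adjusted p at least 0.688).

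Of the 9 members, 1 was called in MT194 versus the clones labelled WT (2.9% of 13223 genes tested, and none of 9 against 0.393% with the block). The groups of 4 members did not overlap (33.6%). Ccng1 had 93.6, 136 and 99.1 CPM in the MT194 clones versus 243, 234 and 277, a fall of 1.2 on the log2 scale (SE 0.28, adjusted p = 0.0458). Although the groups did not overlap, the call was lost in all 6 fits with 1 clone left out (adjusted p from 0.0643 to 0.163), without both WT clones low in Nelfb (−1.11, adjusted p = 0.341) and with the replicate number as a block (0.0636). Versus WT(N48) Ccng1 was called lower in MT194, together with Mdm2 at −1.01 (adjusted p = 0.0329). Trp53inp1 went the other way, with 160, 101 and 93.4 CPM in the MT194 clones versus 38.3, 22.7 and 64.3 (1.5, SE 0.41, adjusted p = 0.0662, and 0.00809 by DESeq2, range over alternatives 0.00809 to 0.225). Without both WT clones low in Nelfb it was 2.37 (adjusted p = 0.225). All 3 MT194 clones lay above the other 12 clones for Trp53inp1, whose highest level was 75.5 CPM. In the populations Trp53inp1 had been lower with Ad-Cre in MT194, against a different comparator, and the difference between these was not tested. Of the 16 proliferation genes, Ccnb1 (a fall of 0.95, SE 0.20, adjusted p = 0.0312) and Ccna2 (a fall of 0.71, SE 0.17, adjusted p = 0.0476) were called lower in the MT194 clones, whose summed level was 2640, 2620 and 2880 CPM versus 3740, 4500 and 4060. Either call was lost without any of the 3 clones labelled WT or without MT194 clone 1 or 2 (adjusted p up to 0.127 and 0.151), and without both WT clones low in Nelfb (−0.76, adjusted p = 0.341 for Ccnb1 and −0.95, adjusted p = 0.225 for Ccna2).

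In MT486 clones versus the clones labelled WT no member was called, nor any other gene (0%, with 1176 genes and 2 members at an unadjusted p under 0.05, and 0 members among 156 genes called by DESeq2). The member furthest apart was Ccng1, at 127, 137 and 134 CPM (−0.92, SE 0.28, adjusted p = 0.302), followed by Mdm2 at 70.3, 70.2 and 46.4 CPM versus 32.3, 36.7 and 41.8 (0.75, SE 0.24, adjusted p = 0.322, and 0.77 with adjusted p = 0.893 without both WT clones low in Nelfb). The groups did not overlap for these or for Bax, 3 of 9 members against 24.2% of genes. Versus WT(N48) the sign for Mdm2 was negative (−0.27, adjusted p = 0.635). For Δ-C60 versus WT(N48), 0 of 9 members and 0% of genes were called, with 1540 genes and no member at an unadjusted p under 0.05, and no member among 221 genes called by DESeq2. Here the groups of every member overlapped, while 11.5% of genes tested had groups that did not.

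Between the clones labelled WT(N48) in pBabe and those labelled WT in pLenti, 1 of 9 was called (2.1% of genes tested, and none of 9 against 0.771% with the block), and Mdm2 was also the only member whose groups did not overlap (1 of 9, against 32% of genes). Mdm2 had 91.1, 77.4 and 56.5 CPM in the WT(N48) clones versus 32.3, 36.7 and 41.8 in those labelled WT, a rise of 1.02 (SE 0.24, adjusted p = 0.0477). It was lost without WT clone 1, 2 or 3 (adjusted p = 0.171, 0.111 and 0.139) and without WT(N48) clone 1 or 2 (0.17 and 0.133), and with WT clone 2 alone the value was 1.01 (adjusted p = 0.577). Without WT(N48) clone 3, where 606 genes were called against 278 with all clones, Mdm2 kept its call and Phlda3 was called as well (1.25, adjusted p = 0.017, against 0.222 with all clones and 0.749 without both WT clones low in Nelfb). The 3 comparisons with the clones labelled WT share those libraries, and vector and construct cannot be told apart for WT(N48).

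Single clones stood out across several members at once. WT(N48) clone 2 was among the 3 highest of 15 clones for 7 of 9 members, and WT(N48) clone 1 and Δ-C60 clone 2 for 6 each. WT(N48) clone 3 was among the 3 lowest for 4. No share over all genes stands beside these counts, so they do not show that the members differ from other genes in this. Some of these libraries also stood apart over all genes: the chi-square per degree of freedom was 296 and 349 between Δ-C60 clone 2 and its replicates and 192 and 155 between WT(N48) clone 3 and its replicates, and 226 between Δ-C60 clones 1 and 3. The proliferation genes summed to 2950 CPM in WT(N48) clone 2 and 3050 in Δ-C60 clone 2, the lowest outside the MT194 clones, and to 3580 in WT(N48) clone 1. The part of either in the levels of the members was not tested. Phlda3, for example, had 278 and 223 CPM in WT(N48) clones 1 and 2 and 63.9 in clone 3, while all other clones lay between 98.3 and 172. Zmat3 followed, with 156, 128 and 58.1 CPM in the WT(N48) clones and 117, 202 and 93.4 in Δ-C60. Fas did not: it had 10.2, 74.8 and 6.94 CPM in WT(N48) and 6.10, 34.7 and 61.8 in Δ-C60, with 152 reads in the lowest clone.

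**Figure D4:**
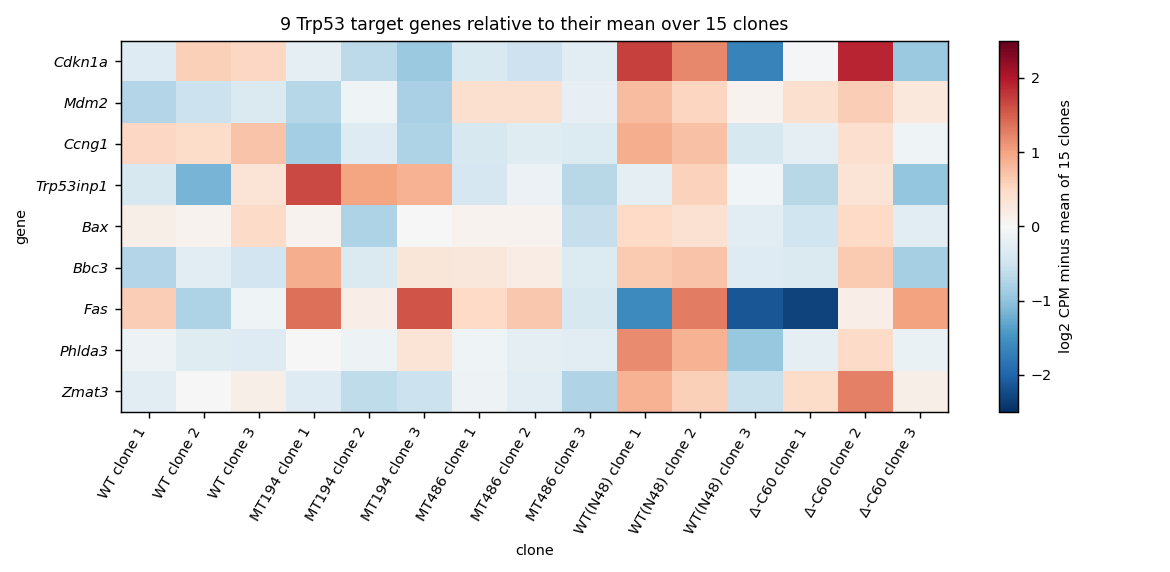
Log2 CPM of each of the 9 genes (rows) in each of 15 clones (columns) minus the mean of that gene over the clones, red for higher and blue for lower. WT(N48) clones 1 and 2 and Δ-C60 clone 2 are red in most rows (6 to 7 genes among the 3 highest), and Fas and Trp53inp1 depart from the other rows.

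The inputs were set beside the clones high in the members. Trp53 RNA was 9.89, 9.99 and 11.6 CPM in WT(N48) clones 1 and 2 and Δ-C60 clone 2, above all other clones but WT clone 3 (10.6 CPM), and 5.54 CPM in WT(N48) clone 3. It was lowest in MT194 clones 1 and 3 (4.16 and 3.95 CPM). Cdkn2a was 54.6, 141 and 196 CPM in the 3 high clones, within the range of 42.9 to 218 over all clones. Their Nelfb levels, 241, 127 and 208 CPM, also lay inside the range of the other clones. The part of any of these in the clone differences was not tested.

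Pairs of members were compared over libraries as a last description. Over the 15 clones, 28 of 36 pairs had a positive Pearson r and 14 were over 0.5, with a median of 0.38. Over the 20 populations 18 pairs were positive and 18 negative, with a median of 0.01 and a range from −0.84 (Ccng1 and Fas) to 0.87 (Cdkn1a and Phlda3). Ccng1 was lower and Fas higher in replicate 2 in every group. For both Cdkn1a and Phlda3, the Ad-Cre replicates lay above the Ad-GFP replicates in EV, WT, MT486 and DMT, and overlapped them in MT194. The part of the replicate or of Ad-Cre in these r was not tested. Libraries of one set share constructs and experiments and members share a pathway, so no p is given. No share over pairs of other genes stands beside these counts, so they do not show that the members differ from other genes.

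**Figure D5:**
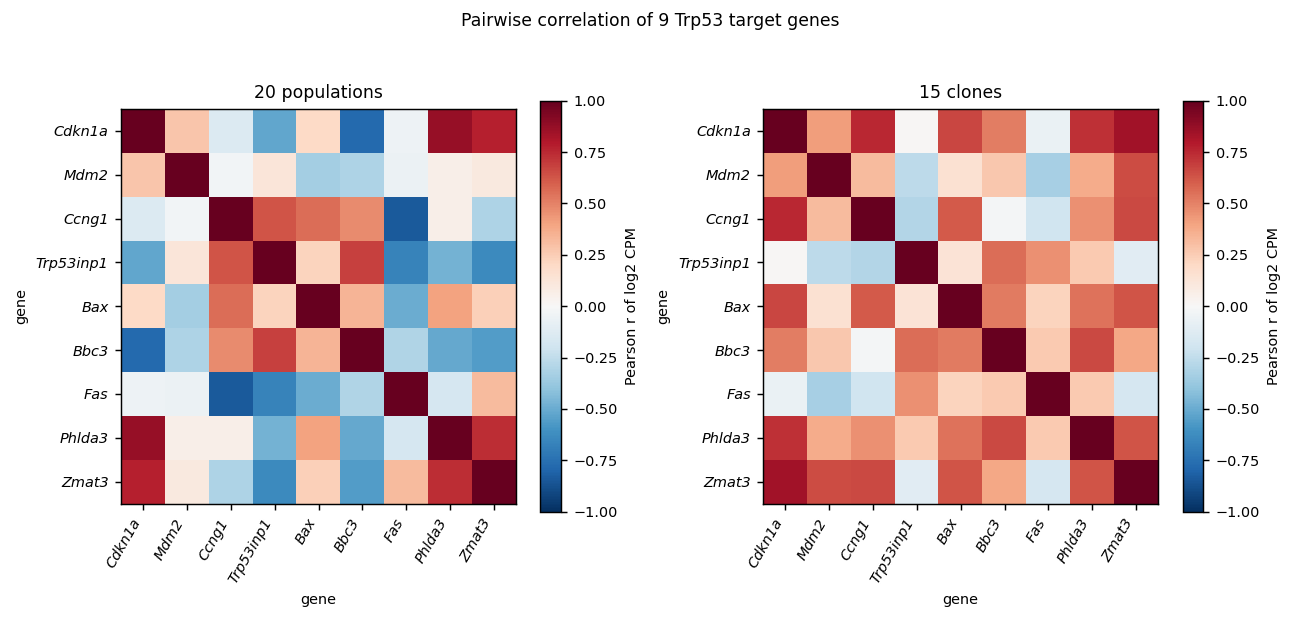
Pearson r of log2 CPM for each pair of the 9 genes (rows and columns) over 20 populations (left) and 15 clones (right), from blue (−1) to red (1). Positive pairs make up 18 of 36 in the populations and 28 of 36 in the clones, with no share over pairs of other genes beside them.

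Between genes, levels per kilobase of exon ordered Fas (median 42.1 CPM per kb over the populations), Bax (38.0), Phlda3 (22.2), Ccng1 (19.3), Trp53inp1 (17.4), Mdm2 (9.51), Cdkn1a (5.59), Zmat3 (4.54) and Bbc3 (4.02). In the clones, scaled separately, Phlda3 (72.3), Bax (58.1) and Ccng1 (40.9) came first and Bbc3 (4.88) last, with Cdkn1a at 18.0 CPM per kb.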

How the data were processed

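Per the labels and the methods of the study, the authors aligned 50 bp single reads of stranded poly(A) libraries to mm10 with Bowtie2, skipped alignments with a mapping quality under 30 and deposited raw read counts per gene from HTSeq (versions not given in the sources used here). Counts were neither normalized nor pooled, and lines without a gene name stayed out of all tests (reads on no gene were 9.14% to 21.3% per library). edgeR 4.0.16 in R 4.3.3 was fitted with TMM scaling, filterByExpr, 1 mean per group and robust quasi-likelihood dispersions, over 20 populations (13805 genes tested) and 15 clones (13223) separately, and the SE is the log2 fold change divided by the root of F. All 9 members passed the filter on low counts. Calls needed a log2 fold change past 0.5 in either direction and a Benjamini-Hochberg adjusted p below 0.05. Replicate numbers pair the populations: deviations from group means correlated for 45 of 45 pairs of groups (r 0.42 to 0.73), and the study describes independent experiments. Those of the clones do not (1 of 10 over 0.1). The main fit of the populations left this pairing out, so its SE includes the shift between replicates. In MT194 the block lowered the SE from 0.43 to 0.11 for Fas, 0.35 to 0.1 for Ccng1 and 0.3 to 0.25 for Cdkn1a. No source ties the clones to separate infections, so p-values there measure only the spread between these libraries.

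Named genes were the 9 members, Nelfb, Trp53, Mdm4 and Cdkn2a, up to 4 called genes per direction of the other targets and up to 3 of the upstream and cell cycle lists whose mean count reached 50, and the 5 genes most like Cdkn1a. The members and lists were chosen with earlier results of these data known, so the counts of calls in the lists are descriptions. Of the upstream list (15 genes, 14 tested), Cdkn2a, Chek2 and Kat5 were called lower in EV, Cdkn2a and Kat5 in MT194 and Cdkn2a and Trp63 in DMT. Kat5 in MT194 and Trp63 in DMT were lost with any library left out (adjusted p from 0.0722 to 0.162 and from 0.104 to 0.18), and Chek2 and Kat5 in EV without EV-Cre replicate 2 or EV-GFP replicate 2. Positions and exon lengths are those of GENCODE for GRCm38. Alternatives were DESeq2 1.42.0, its size factors in edgeR, no filter on low counts, the compared groups alone, other fold thresholds, the replicate block, each library left out, and for clones other comparators. Where 1 library was left in a group, it was taken to vary like the others. The steps were tested on simulated data.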

Additional observations from a re-analysis of the deposited data

Results flagged for a closer look

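For 4 of the 9 genes, both replicates of EV moved one way with Ad-Cre and both replicates of another construct the opposite way, by the log2 ratio of Ad-Cre to Ad-GFP within a replicate. These differences from EV were not tested, because the EV values were known when the genes were listed. With 2 replicates per group and no share over all genes beside it, nothing is read from this count. Mdm2 was higher with Ad-Cre in EV (0.41 and 0.23) and lower in WT and MT194, so that the mean ratio differed from EV by −0.48 and −0.46. Ccng1 was lower in EV and higher in WT, a difference of 0.50. For Bax, EV was close to 0 (−0.01 and −0.03) and the differences were 0.19 for WT, 0.23 for MT486 and 0.20 for DMT. With 1 library left out of the fit without a block, the EV value changed sign for Bax and Fas. For Fas, EV was also close to 0 (−0.03 and −0.02) and the differences were 0.08 for WT, 0.44 for MT194, 0.18 for MT486 and 0.30 for DMT. Among WT, MT194, MT486 and DMT, none of the 6 pairwise differences in Cre effect passed the test for any member (edgeR without a block).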

How the results depend on the processing

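Counts of members called moved with the processing as follows, with the number of all genes called beside each count, and the cause was not tested. In EV (4 members, 1626 genes) the count was 1 with the compared groups alone (239 genes) and 2 above an absolute log2 fold change of 1 (900), and 2 to 3 with 1 library left out (734 to 1060). In MT194 (1, 582 genes) it was 2 with DESeq2 (901), 0 with the groups alone (0) and 2 with the replicate block (2003), and 0 to 1 with 1 library left out (189 to 294). In MT486 (0, 334 genes) it was 3 with DESeq2 (684), 1 with its size factors (321) and 3 with the block (1673). In DMT (3, 1369 genes) it was 1 with the groups alone (489), 1 above a log2 fold change of 1 (733), and 1 to 2 with 1 library left out (518 to 791). For MT194 minus WT (0, 0 genes) the block gave 1 (354). In MT194 clones (1, 384 genes) DESeq2 gave 2 (1145), the block 0 (52), the WT(N48) comparator 2 (770), removal of both WT clones low in Nelfb 0 (1), and any clone left out 0 (0 to 346). MT486 clones (0, 0 genes) had 1, Ccng1, with the groups alone (69), and Δ-C60 (0, 0 genes) 1, Mdm2, versus the clones labelled WT (1102). For WT(N48) versus WT (1, 278 genes) it was 0 without the filter (195), with the block (102) and without both low clones (2), and 0 to 2 with 1 clone left out (10 to 606, the 2 members in the fit with 606). The block is a pairing for the populations only: in the clones 1 of 10 correlations passed 0.1 and 3 of 15 clones were closest to their own number. It changed no other count of members called by over 1.5 times.

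Signs turned as follows, including values far from 0 where the comparator of the clones was changed. For Bax in DMT minus WT (0) the value was 0.01 with DESeq2, its size factors and the block and 0 without the filter or with the groups alone. In MT194 clones Mdm2 was 0 without the filter and −0.02 with the block, and versus WT(N48) Mdm2 was −1.01, Bbc3 −0.05 and Phlda3 −0.53. In MT486 clones versus WT(N48) Mdm2 was −0.27, Bbc3 −0.35 and Phlda3 −0.82, and Trp53inp1 was 0.76 without both low clones. For Δ-C60 versus the clones labelled WT, Cdkn1a was 0.48, Mdm2 0.97, Bbc3 0.45 and Phlda3 0.31. For WT(N48) versus WT clone 2 alone, Ccng1 was 0.03, Bax 0.13 and Fas 0.75.

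With 1 library left out, signs turned within the ranges below. These fits had no replicate block, so leaving out a population library also unpaired the replicates. Within replicates the log2 ratio kept its sign in MT194 for Cdkn1a (0.79 and 0.11) and Ccng1 (−0.11 and −0.28). The same held there for Fas (0.19 and 0.64) and Phlda3 (0.05 and 0.2). Fas also kept its sign in EV, WT, MT486 and DMT, as did Bax in EV. The sign turned for Bbc3 in WT (−0.16 and 0.03), Ccng1 in MT486 (0.19 and −0.02) and Mdm2 in DMT (0.01 and −0.11). In EV, Bax ran from −0.07 to 0.03 and Fas from −0.42 to 0.37. In WT, Bbc3 ran from −0.17 to 0.04 and Fas from −0.17 to 0.28. In MT194, Cdkn1a ran from −0.08 to 0.96, Ccng1 from −0.59 to 0.14, Fas from −0.14 to 0.90 and Phlda3 from −0.01 to 0.26. In MT486, Ccng1 ran from −0.29 to 0.42 and Fas from −0.24 to 0.49, and in DMT Mdm2 from −0.13 to 0.03 and Fas from −0.10 to 0.69. For MT194 minus WT, Cdkn1a ran from −0.93 to 0.10, Mdm2 from −0.06 to 0.10 and Fas from −0.21 to 0.84. For MT486 minus WT, Ccng1 ran from −0.45 to 0.26, Bax from −0.09 to 0.16, Fas from −0.30 to 0.43 and Zmat3 from −0.01 to 0.31. For DMT minus WT, Bax ran from −0.13 to 0.14, Fas from −0.17 to 0.63 and Zmat3 from −0.05 to 0.11. In clones, Mdm2 ran from −0.24 to 0.14 for MT194, and for MT486 Trp53inp1 from −0.42 to 0.33 and Phlda3 from −0.02 to 0.10. For Δ-C60, Cdkn1a ran from −1.38 to 0.41, Mdm2 from −0.21 to 0.11, Fas from −0.59 to 1.99 and Zmat3 from −0.12 to 0.56. For WT(N48) versus WT, Ccng1 ran from −0.30 to 0.23, Bax from −0.17 to 0.16 and Fas from −1.87 to 0.43. Groups held 2 populations or 3 clones. Bbc3 had as few as 93 reads in a population, so its counting error there is the largest of the members. In the clones the fewest reads were 142 for Bbc3 and 152 for Fas.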
